A study of Mus musculus with 6 samples.

Results

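The Hox genes measured here were the 28 mouse genes of the HoxA, HoxB, HoxC and HoxD clusters that had a probe set paired with exactly 1 gene symbol on an Affymetrix mouse gene array, out of 10261 genes measured in that way. Members were chosen by symbol and not by signal, and antisense transcripts of the clusters were left out. The list for the series named 38 Hox genes, and 10 of them (Hoxa3, Hoxa7, Hoxb8, Hoxb13, Hoxc11, Hoxc12, Hoxc13, Hoxd1, Hoxd3 and Hoxd4) had no probe set of their own and were not analysed here. The 28 measured genes comprised 8 from HoxA, 8 from HoxB, 6 from HoxC and 6 from HoxD, each with a single probe set. The samples were untreated primary mouse cells of an epithelial and a mesenchymal type, with 3 arrays per group. The first group was labelled keratinocytes, the cells of the epidermis, isolated from newborn mice at P0. The second group was labelled MEF, mouse embryonic fibroblasts, isolated at E13.5 from embryos whose heads and inner organs had been removed, and the protocol pooled several embryos. The labels name DR-4 as the strain of the MEF protocol, the methods of the study give C57BL/6J for its MEFs, and which of these strains was on the arrays is not settled by either. The 3 arrays of a group are labelled as biological replicates, with nothing more said on their cultures or animals, so that p-values measure the spread between these arrays.

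The labels were checked against Cdh1, which encodes the epithelial adhesion molecule E-cadherin, and Vim, which encodes the mesenchymal intermediate filament vimentin, and both ran against them. Signals are given as log2 RMA values throughout. On the keratinocyte-labelled arrays, Cdh1 read 3.33, 2.16 and 3.26, and on the MEF-labelled arrays it read 8.62, 8.59 and 8.73. Vim read 11.93, 11.97 and 12.03 on the keratinocyte-labelled arrays and 3.81, 3.92 and 3.78 on the MEF-labelled arrays. Vim was therefore at least 48.1-fold higher (limma adjusted p = 7.89e-10), and Cdh1 at least 7.71-fold lower (limma adjusted p = 4.03e-07), on the keratinocyte-labelled arrays. The exact permutation test over arrays gave p = 0.1 for each gene, the smallest value that 3 arrays against 3 allow. All 8 epidermis markers were higher on the MEF-labelled arrays, where their mean lay between 10.23 and 10.24 against 2.72 to 3.00, and all 9 fibroblast markers were higher on the keratinocyte-labelled arrays, where their mean lay between 10.51 and 10.57 against 3.01 to 3.18. Of other cell types, no melanocyte marker was measured. Kdr of endothelium (log2 difference -1.47) and Cd68 of macrophages (-3.92) were lower on the keratinocyte-labelled arrays, while the myeloid gene Lyz2 (3.74), the muscle gene Des (3.87), the neural progenitor gene Nes (4.29) and 3 of 4 cartilage markers were higher on them. The other cartilage marker, Sox9, was lower (-0.85). Lyz2 and Des were above the background defined below on only 1 array each, and Kdr and the cartilage markers Acan and Comp on none. The other neural marker measured, Tubb3, did not pass the test (-0.07), and the part of such cells in the Hox differences was not tested. All 6 arrays run against their labels in this way, so no result can be given without them, and the groups below are named strictly by their labels, as keratinocyte-labelled or MEF-labelled arrays.

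Hox genes encode homeodomain transcription factors that give cells their position along the body axis. In mammals they lie in 4 clusters, and each cluster keeps its genes in an order that matches where, from head to tail, their expression begins, a property called collinearity. Genes at the same rank in different clusters are paralogues and carry the same number, low numbers being anterior and high numbers posterior. Skin and limb fibroblasts are known for keeping the Hox pattern of the body site from which they came, and the posterior genes of HoxA and HoxD also pattern the limb. Hox proteins bind DNA with TALE homeodomain partners of the Pbx and Meis families. The clusters are classical targets of Polycomb repression and are rich in unmethylated CpG.

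The sequences upstream of members from each cluster are shown here to give the composition of Hox start regions. RefSeq promoter entries (assembly GRCm38.p6) were found for 16 of the 28 genes, in 18 entries, and 12 genes had no entry. Each line holds the 250 bases before the annotated start, read 5′ to 3′ on the gene's strand, in lower case with every CpG in capitals. Hoxd13 (chr2:74667975-74668224, plus strand) and Hoxa13 (chr6:52260881-52261130, minus strand) are the paralogues of the most posterior group, Hoxa5 (chr6:52204588-52204837, minus strand) was above background in both groups, and Hoxb4 (chr11:96318017-96318266, plus strand) and Hoxc4 (chr15:103034145-103034394, plus strand) are paralogues of which only the HoxC gene passed the test.
Hoxd13: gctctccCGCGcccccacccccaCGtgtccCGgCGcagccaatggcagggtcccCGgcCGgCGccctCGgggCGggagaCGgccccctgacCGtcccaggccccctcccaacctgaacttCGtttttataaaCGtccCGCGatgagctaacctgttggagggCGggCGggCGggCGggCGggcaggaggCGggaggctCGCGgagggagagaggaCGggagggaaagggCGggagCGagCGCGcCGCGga
Hoxa13: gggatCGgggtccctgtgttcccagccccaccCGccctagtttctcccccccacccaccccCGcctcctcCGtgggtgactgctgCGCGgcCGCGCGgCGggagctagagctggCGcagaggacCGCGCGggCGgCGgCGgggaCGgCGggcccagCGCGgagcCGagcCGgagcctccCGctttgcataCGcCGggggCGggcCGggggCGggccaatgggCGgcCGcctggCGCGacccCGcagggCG
Hoxa5: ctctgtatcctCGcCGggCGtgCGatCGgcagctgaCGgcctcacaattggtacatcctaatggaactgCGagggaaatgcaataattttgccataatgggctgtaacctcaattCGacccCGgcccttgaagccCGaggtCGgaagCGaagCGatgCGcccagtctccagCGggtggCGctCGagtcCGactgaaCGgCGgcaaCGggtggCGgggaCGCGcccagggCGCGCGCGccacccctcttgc
Hoxb4: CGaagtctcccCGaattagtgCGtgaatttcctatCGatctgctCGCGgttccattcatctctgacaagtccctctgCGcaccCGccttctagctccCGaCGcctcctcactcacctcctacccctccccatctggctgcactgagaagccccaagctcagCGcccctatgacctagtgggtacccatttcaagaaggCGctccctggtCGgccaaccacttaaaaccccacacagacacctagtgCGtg
Hoxc4: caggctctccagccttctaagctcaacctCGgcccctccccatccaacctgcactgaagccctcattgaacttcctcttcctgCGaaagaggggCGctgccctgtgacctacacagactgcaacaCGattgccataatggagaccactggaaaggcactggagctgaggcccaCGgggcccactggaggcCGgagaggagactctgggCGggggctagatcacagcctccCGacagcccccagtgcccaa
The Hoxa13 stretch held 35 CpG and was 80.0% G or C, the Hoxd13 stretch held 31 and was 74.4% G or C, and the Hoxa5 stretch held 28 and was 63.6% G or C. By contrast, Hoxb4 held 14 CpG and Hoxc4 held 8. Corrected for base composition, the CpG observed over expected ratio was 1.11 for Hoxa5, 0.901 for Hoxd13, 0.875 for Hoxa13, 0.760 for Hoxb4 and 0.341 for Hoxc4. The median of the 18 Hox entries was 0.637, against 0.374 over all 32851 promoter entries of the table. In 9 of the 18 entries the ratio was 0.6 or more, as it was in 33.95% of all entries. The letters CCAAT, the core of the CCAAT box, were found on either strand in 10 of the 18 entries and in 33.9% of all. TATAAA, the core letters of a classical promoter element, was found on either strand in 2 entries, those of Hoxd13 and 1 of the entries of Hoxa10, and in 12.4% of all. TGATTNAT, a form of the joint Pbx and Hox site, was found on either strand in 2 entries, of Hoxa2 and Hoxd11, and in 2.83% of all, and TTTATNG, an AT-rich core of the kind that posterior Hox proteins bind, was found in none of the 18 and in 9.81% of all. These matches describe letters in a window and are not evidence of binding.

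Among the 28 Hox genes, 22 were higher on the keratinocyte-labelled arrays, 1 was lower (Hoxa2) and 5 did not pass the test (Hoxb1, Hoxb2, Hoxb4, Hoxb6 and Hoxb7). The test was limma with an adjusted p under 0.05 over all probe sets with exactly 1 symbol. For comparison, 32.9% of all 10261 genes were called higher and 41.7% were called lower by the same test. A call with a log2 difference of at least 1 was made for 15 Hox genes, compared with 14.1% of all genes in that direction. The values of the groups did not overlap for 23 Hox genes, against 78.4% of all genes, so that separation of the groups by itself was close to what any gene showed on these arrays. The median log2 difference was 1.46 over the Hox genes and -0.12 over all genes. The array mean over the 28 Hox genes lay at 5.37, 5.47 and 5.36 on the keratinocyte-labelled arrays and at 4.08, 3.95 and 4.00 on the MEF-labelled arrays. In these bulk samples, fewer cells expressing a gene and less RNA per cell cannot be told apart.

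**Figure D1:**
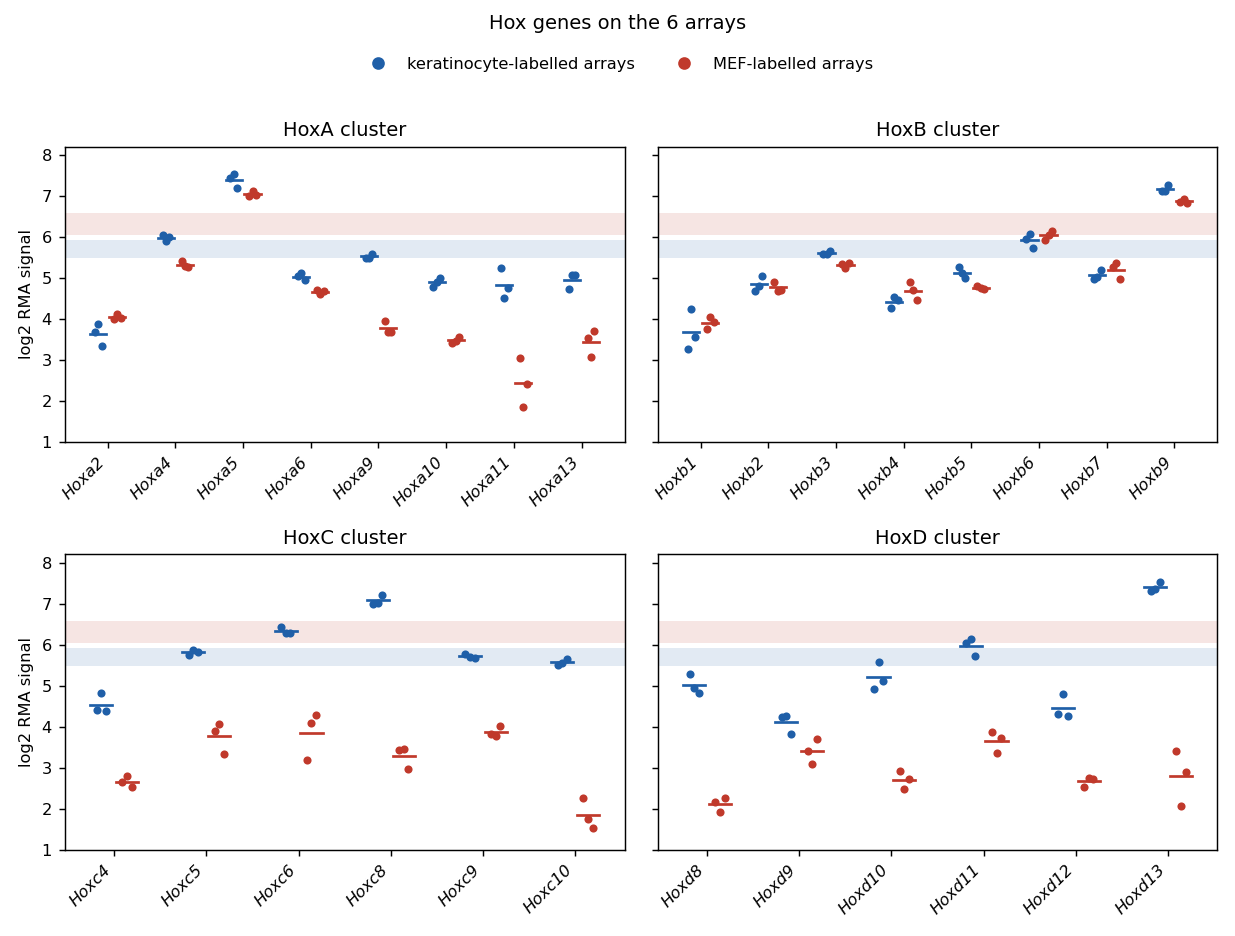
Log2 RMA signal (vertical axis) of the 28 Hox genes, in panels by cluster and ordered by paralogue number, with a point for each array and a bar at each group mean; the shaded bands span the background of the keratinocyte-labelled (blue, 5.49 to 5.92) and MEF-labelled arrays (red, 6.05 to 6.58). HoxC and HoxD genes sit apart in the groups, HoxB genes sit together, and only Hoxa5 and Hoxb9 lie above both bands on all arrays.

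Most Hox signals were dim, and this limits the size that can be given to a difference. Background was set on each array at the 95th percentile over 10 probe sets of olfactory receptors, genes of the nasal epithelium that neither cell type should use. It lay at 5.70, 5.92 and 5.49 on the keratinocyte-labelled arrays and at 6.53, 6.05 and 6.58 on the MEF-labelled arrays. With 10 probe sets, this percentile rests on the brightest receptors. On MEF replicates 1 and 3 it was above the median signal of the whole array (6.25 and 6.31). Most probe sets of those arrays thus counted as below background, which does not mark a gene as absent. In all, 13 of the 28 Hox genes were above background on any array. On all 3 keratinocyte-labelled arrays, 7 genes were above it (Hoxa5, Hoxb6, Hoxb9, Hoxc6, Hoxc8, Hoxd11 and Hoxd13), whereas on all 3 MEF-labelled arrays 2 genes were (Hoxa5 and Hoxb9). With the background set at the median olfactory signal instead, an alternative chosen after seeing the data, these counts were 23 and 10. At the 95th percentile the background was higher on the MEF-labelled arrays, so 7 and 2 were not counted at the same signal. Hoxb6 counted for the keratinocyte-labelled arrays alone, yet its mean was 5.92 on them and 6.03 on the MEF-labelled arrays. Where a gene was not above background in a group, a fold change is a lower bound against that background, and where neither group was above it, no fold is given and the log2 difference describes the measured signal alone. For folds, a group counts as above background if any of its arrays was, so some folds rest partly on signals below background.

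The clusters differed in how far their members moved. HoxC and HoxD held the largest differences, HoxA an intermediate range and HoxB hardly any. In HoxC all 6 measured genes were higher on the keratinocyte-labelled arrays, with log2 differences of 1.85 to 3.80 and a median of 2.27. In HoxD all 6 were higher as well, with differences of 0.71 to 4.62 and a median of 2.41. HoxA had 7 genes higher and 1 lower, with a median of 1.03. HoxB had 3 genes higher and 5 not past the test, its differences all lay between -0.26 and 0.36, and its median was -0.01. A difference of at least 1 was called for 4 HoxA, 6 HoxC, 5 HoxD and no HoxB genes. The mean over the HoxC genes was 5.81, 5.87 and 5.84 on the keratinocyte-labelled arrays and 3.20, 3.32 and 3.11 on the MEF-labelled arrays. The HoxD mean was 5.34, 5.51 and 5.21 against 3.04, 2.61 and 3.00. For HoxA it was 5.30, 5.30 and 5.23 against 4.38, 4.15 and 4.29. These cluster means were apart in every array of the groups, unlike the HoxB mean, which was 5.14, 5.31 and 5.24 against 5.21, 5.22 and 5.14 and overlapped.

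**Figure D2:**
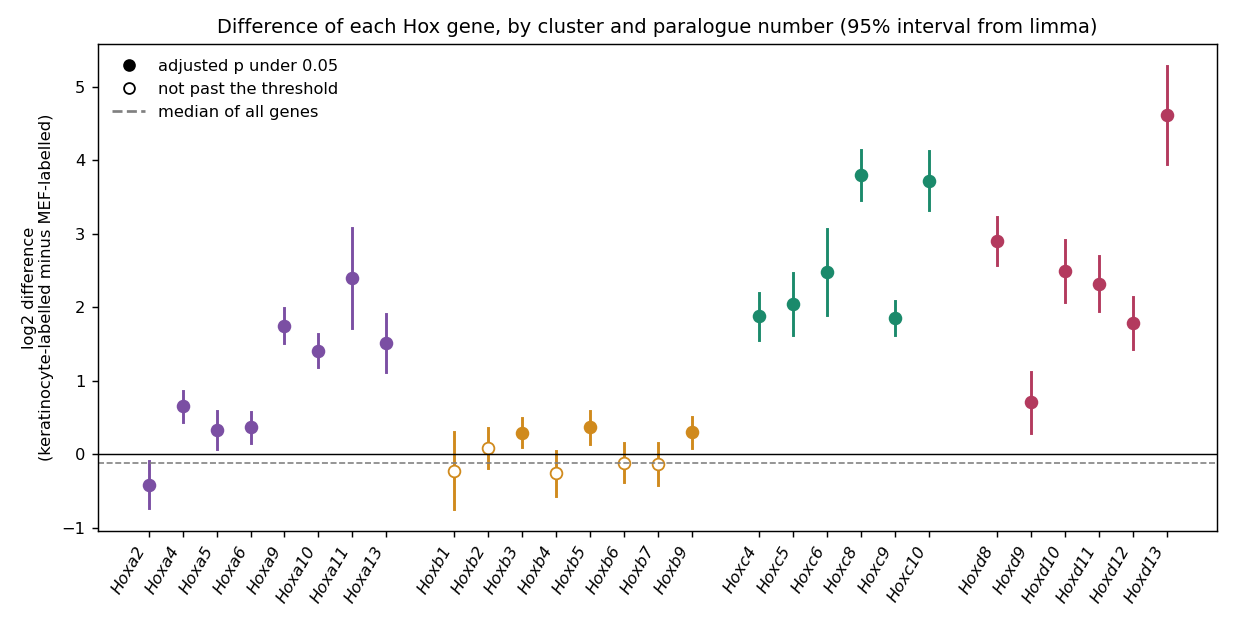
Log2 difference of each Hox gene, keratinocyte-labelled arrays minus MEF-labelled arrays (vertical axis), along each cluster from anterior to posterior, with 95% intervals from limma; filled points passed an adjusted p of 0.05 and the dashed line is the median of all genes (-0.12). The HoxB points lie between -0.26 and 0.36, and those of HoxC and HoxD reach 3.80 and 4.62.

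Pooled over the clusters, the differences were also ordered by position. Of the 4 anterior genes measured (paralogue groups 1 to 3), 1 was higher, 1 lower and 2 not past the test, with a median log2 difference of -0.07. Of the 12 central genes (groups 4 to 8), 9 were higher and 3 were not past the test, with a median of 0.51. All 12 posterior genes (groups 9 to 13) were higher, with a median of 1.82. The rank correlation (Spearman's rho) between the log2 difference and the paralogue number across genes was 0.63 over all 28 genes, 0.81 over the 8 HoxA genes, 0.31 over the 8 HoxB genes, 0.31 over the 6 HoxC genes and 0.20 over the 6 HoxD genes. These points share the same 6 arrays, and genes are not independent replicates. Position and cluster are also partly mixed in this set, since the anterior genes measured came from HoxA and HoxB alone. HoxB held 4 central genes and 1 posterior gene, and HoxD 1 central gene and 5 posterior genes. Within clusters, the central and posterior medians were 0.36 and 1.64 in HoxA, -0.12 and 0.30 in HoxB and 2.27 and 2.79 in HoxC. In HoxD the order was reversed, at 2.91 and 2.32. The share of position apart from cluster was not tested.

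In HoxD, the cluster known for its 5′ genes in digits and the genital bud, Hoxd13 held the largest difference of all Hox genes. It read 7.30, 7.37 and 7.53 on the keratinocyte-labelled arrays and 3.40, 2.06 and 2.89 on the MEF-labelled arrays. These groups were far apart, and only the former was above background. Hoxd13 was thus at least 2.02-fold higher on the keratinocyte-labelled arrays (log2 difference 4.62 ± 0.29 SE, limma adjusted p = 1.91e-06). Hoxd11, which acts in the forearm and kidney, read 6.04, 6.14 and 5.73 against 3.86, 3.35 and 3.72. Its log2 difference was 2.32 ± 0.16 SE (limma adjusted p = 3.37e-06), and since its signal lay under the background of the MEF-labelled arrays, no fold could be set. Hoxd8, a central gene, read 5.28, 4.94 and 4.82 against 2.15, 1.92 and 2.25, without overlap and below background on all 6 arrays. Hoxd10 read 4.91, 5.57 and 5.11 against 2.91, 2.48 and 2.71. Hoxd12 read 4.30, 4.79 and 4.26 against 2.53, 2.75 and 2.73. Both were below background on all arrays, with log2 differences of 2.49 for Hoxd10 and 1.79 for Hoxd12. Hoxd9 stood nearest to 0 in its cluster, reading 4.24, 4.25 and 3.82 against 3.41, 3.08 and 3.70, a log2 difference of 0.71 ± 0.18 SE (limma adjusted p = 0.00713). It was below background on all 6 arrays. Its call was lost with the methods' t-test after adjustment (0.0525).

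HoxC genes take part in patterning of the thorax and in skin appendages, and those measured reach from Hoxc4 to Hoxc10. Hoxc8, a gene of the thoracic region, read 7.00, 7.03 and 7.21 on the keratinocyte-labelled arrays and 3.43, 3.46 and 2.96 on the MEF-labelled arrays. On the former it was higher by at least 1.62-fold (log2 difference 3.80 ± 0.15 SE, limma adjusted p = 9.56e-08). Together with Hoxd13 it was the only Hox gene whose lower bound was above 1. Hoxc10, a gene of the lumbar region and hindlimb, read 5.50, 5.55 and 5.65 against 2.26, 1.74 and 1.53. Its log2 difference was 3.73 ± 0.17 SE (limma adjusted p = 3.13e-07), although it was above background on only 1 array. Hoxc6 read 6.43, 6.28 and 6.28 against 3.17, 4.09 and 4.27, above background on all 3 keratinocyte-labelled arrays. Its log2 difference was 2.49 ± 0.25 SE (limma adjusted p = 3.96e-05), with the wide spread of the MEF-labelled arrays (SD 0.59, n = 3) in its error. Hoxc5 read 5.74, 5.87 and 5.83 against 3.90, 4.07 and 3.32, above background on 2 arrays. Hoxc9, a gene of the thoracic spinal cord, read 5.78, 5.70 and 5.68 against 3.81, 3.77 and 4.03, also above background on 2 arrays. Their log2 differences were 2.04 for Hoxc5 and 1.85 for Hoxc9, and in both the groups were apart. Hoxc4 read 4.40, 4.81 and 4.38 against 2.66, 2.79 and 2.52, a log2 difference of 1.88 below background throughout.

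HoxA was split along its length. From Hoxa9 to Hoxa13, the measured posterior genes differed by 1.41 to 2.40 on the log2 scale, the central genes Hoxa4, Hoxa5 and Hoxa6 by 0.33 to 0.65, and the anterior Hoxa2 ran the other way. Hoxa9, a posterior gene with known roles in blood and limb, read 5.48, 5.49 and 5.59 against 3.94, 3.69 and 3.68, a log2 difference of 1.75 ± 0.10 SE (limma adjusted p = 1.24e-06). It was above background on only 1 array. Hoxa11, which patterns the forearm and lower leg, read 5.24, 4.51 and 4.74 against 3.04, 1.86 and 2.40. This difference of 2.40 ± 0.30 SE was the largest in HoxA and had the widest error of the 28 genes. Hoxa10 read 4.77, 4.90 and 4.99 against 3.42, 3.45 and 3.56, a log2 difference of 1.41. Hoxa13, which with Hoxd13 patterns the digits, read 4.72, 5.07 and 5.06 against 3.52, 3.08 and 3.70, a log2 difference of 1.52. Hoxa10, Hoxa11 and Hoxa13 had groups apart and were below background on all arrays.

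Among the central HoxA genes, Hoxa5 was above background on all 6 arrays. It is a gene of the lower neck and upper thorax that also acts in the lung, and it read 7.44, 7.52 and 7.18 on the keratinocyte-labelled arrays and 6.99, 7.13 and 7.03 on the MEF-labelled arrays. The groups lay close to each other without overlap, at 1.26-fold (log2 difference 0.33 ± 0.11 SE, limma adjusted p = 0.0250). This call was lost when keratinocytes replicate 1 (limma adjusted p = 0.0614) or 2 (0.0804), or MEF replicate 1 (0.0722) or 3 (0.0702), was left out. It was also lost with the methods' t-test after adjustment (0.0558). Hoxa4 read 6.04, 5.88 and 5.99 against 5.41, 5.28 and 5.27, a log2 difference of 0.65 ± 0.09 SE (limma adjusted p = 2.80e-04), above background on 2 arrays. Hoxa6 read 5.03, 5.11 and 4.94 against 4.71, 4.60 and 4.68, a log2 difference of 0.36 below background. Hoxa2, the most anterior HoxA gene measured and a hindbrain and neural crest regulator, read 3.67, 3.88 and 3.33 against 4.00, 4.11 and 4.01. It was the one Hox gene called lower on the keratinocyte-labelled arrays, by a log2 difference of -0.41 ± 0.14 SE (limma adjusted p = 0.0266), below background on every array. After each array was centred on its median the difference was -0.32 and the call was lost (limma adjusted p = 0.0881), as it was without keratinocytes replicate 3 (0.0633), MEF replicate 2 (0.0773) or MEF replicate 3 (0.0582).

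HoxB, which is expressed widely in the neural tube, blood and trunk, showed small differences, and none of its genes was called lower. Hoxb9, its most posterior gene measured, read 7.11, 7.12 and 7.26 on the keratinocyte-labelled arrays and 6.85, 6.92 and 6.82 on the MEF-labelled arrays, above background on all 6 arrays. It was 1.23-fold higher (log2 difference 0.30 ± 0.09 SE, limma adjusted p = 0.0167), and the call was lost without keratinocytes replicate 3 (0.0520) or MEF replicate 3 (0.0633). Hoxb3 read 5.59, 5.57 and 5.65 against 5.33, 5.25 and 5.36, a log2 difference of 0.29 ± 0.09 SE (limma adjusted p = 0.0139) that lost its call without MEF replicate 2 (0.0608). It was above background on only 1 array. Hoxb5 read 5.27, 5.11 and 4.99 against 4.79, 4.76 and 4.74, a log2 difference of 0.36 (limma adjusted p = 0.0101) below background on all arrays. These were the HoxB genes past the test, and in each the groups did not overlap. Hoxb6 had similar values on all arrays, at 5.95, 6.08 and 5.72 against 5.92, 6.05 and 6.13, and the 95% interval of its log2 difference ran from -0.38 to 0.15. Hoxb7 read 4.97, 5.03 and 5.20 against 5.26, 5.35 and 4.97, with an interval of -0.41 to 0.16. Hoxb2 read between 4.69 and 5.05 on all arrays, with an interval of -0.19 to 0.36. These intervals leave out differences in measured signal of the size seen in HoxC. They do not bound RNA differences, since Hoxb2 and Hoxb7 were below background and Hoxb6 was above it on only 1 MEF-labelled array. Hoxb4, a gene known for its effect on blood stem cells, read 4.27, 4.52 and 4.46 against 4.89, 4.70 and 4.45, and its interval was -0.56 to 0.04. Without MEF replicate 3 it was called lower, by -0.38 (limma adjusted p = 0.0346). Hoxb1, a hindbrain gene, read 3.26, 4.23 and 3.56 against 3.74, 4.05 and 3.93, with an interval of -0.74 to 0.30. Without keratinocytes replicate 2, whose value was the highest, it was called lower, by -0.50 (limma adjusted p = 0.0151). Hoxb1, Hoxb2, Hoxb4 and Hoxb7 were below background on all arrays.

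Paralogues allow the clusters to be set against each other at the same position, as the ratio of a pair of genes within each array. Levels of different probe sets cannot be compared directly, so only the shift of that ratio between the groups is given, with a 95% interval (4 degrees of freedom). In 9 paralogue groups there were 22 such pairs. The exact permutation p was 0.1 in 18 of them, the smallest value possible, and 0.122 after adjustment over the 22 pairs, so that none could pass a threshold of 0.05 in this design. In every pair at least 1 of the genes was below background on all arrays of a group, so that the shifts describe the measured signal and not the RNA ratio. For Hoxa13 over Hoxd13, of which the former was below background on all 6 arrays and the latter on all 3 MEF-labelled arrays, the shift was -3.10 (interval -3.88 to -2.31). The ratio was -2.58, -2.30 and -2.47 on the keratinocyte-labelled arrays and 0.12, 1.02 and 0.80 on the MEF-labelled arrays. The differences of HoxB genes were smaller than those of their HoxC paralogues at each of the 4 positions measured. The shift was -2.14 for Hoxb4 over Hoxc4 (interval -2.54 to -1.73) and -1.68 for Hoxb5 over Hoxc5, whose interval also lay below 0. Likewise it was -2.60 for Hoxb6 over Hoxc6 (-3.43 to -1.77) and -1.55 for Hoxb9 over Hoxc9 (-1.92 to -1.19). For HoxA over HoxC genes the shift at groups 4, 5, 6 and 10 was -1.22, -1.71, -2.12 and -2.32 in turn, and at group 9 the interval included 0 (Hoxa9 over Hoxc9, -0.10, interval -0.52 to 0.32). The other pairs with overlapping groups were Hoxa5 over Hoxb5 at -0.03 (-0.29 to 0.22), Hoxb9 over Hoxd9 at -0.41 (-1.20 to 0.38) and Hoxa11 over Hoxd11 at 0.08 (-0.82 to 0.97). The last of these intervals is wide, and a shift of up to 0.82 in size in either direction would lie within it.

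**Figure D3:**
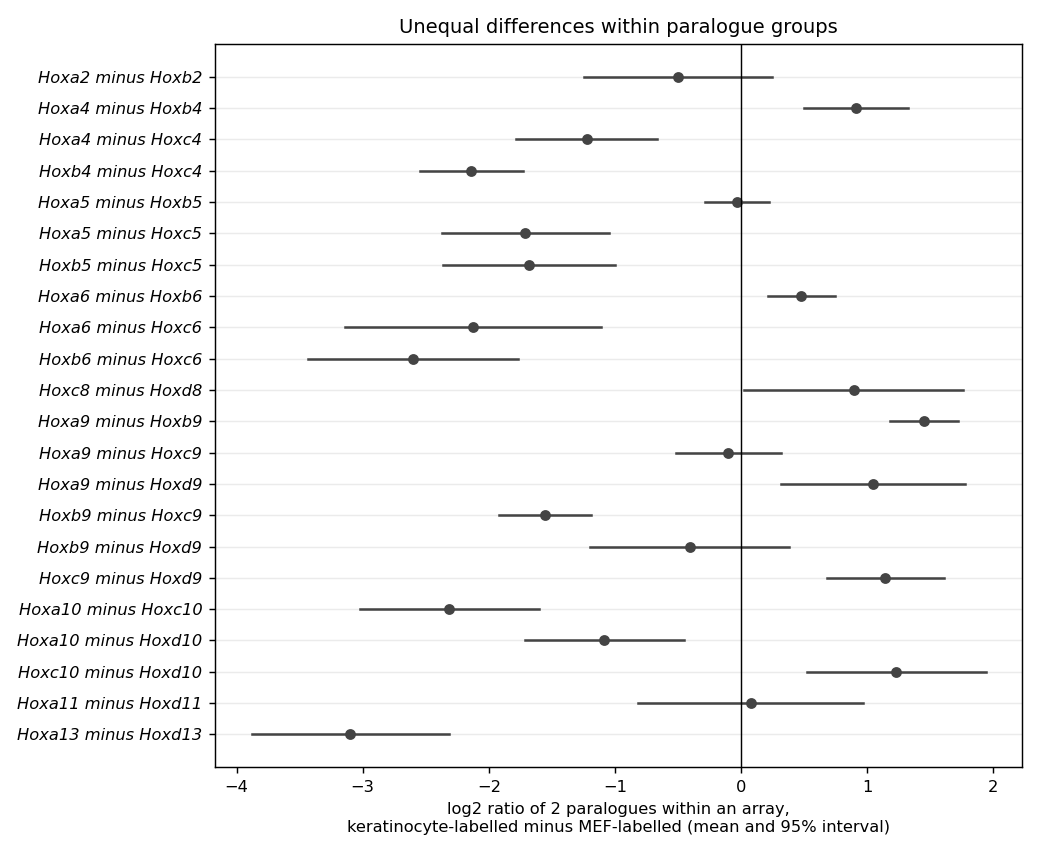
Shift of the log2 ratio of paralogues within an array, keratinocyte-labelled arrays minus MEF-labelled arrays (horizontal axis), for the 22 pairs (rows), with points at the mean and lines for the 95% interval. The pairs of a HoxB gene over a HoxC gene lie between -2.60 and -1.55, and Hoxa13 over Hoxd13 lies at -3.10, while in every pair at least 1 gene was below background on all arrays of a group.

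The DNA-binding partners of Hox proteins moved in part with the clusters. Of the 9 TALE genes listed, 8 were measured, 5 were higher on the keratinocyte-labelled arrays, against 32.9% of all genes, and 3 did not pass the test, with a median log2 difference of 0.84 against -0.12 over all genes. Meis1, a partner that marks the proximal limb, read 7.24, 7.49 and 7.39 against 6.23, 6.16 and 6.17, a 2.28-fold difference. Meis2, its close relative, was 2.21-fold higher. Both were above background on 1 MEF-labelled array and on all 3 keratinocyte-labelled arrays. Pbx3, a partner of Hox proteins of most positions, read 7.00, 7.63 and 7.51 against 5.24, 4.92 and 5.14 and was at least 1.99-fold higher. Pknox2, a relative of the Meis proteins, had the largest log2 difference of this list, 2.84 ± 0.19 SE, below background on all arrays. The genes that did not pass were Pbx2, Pbx4 and Pknox1, with log2 differences of -0.10, -0.04 and -0.13. Evx2, the Even-skipped gene at the posterior end of HoxD, and Cdx1, a ParaHox gene that acts upstream of Hox genes in the embryo, were the 2 genes measured of 8 in their list. Evx2 lies next to Hoxd13, yet its log2 difference was 0.16 ± 0.12 SE and it was below background, as was Cdx1 at 0.06 ± 0.10 SE.

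The genes that flank the clusters showed no such rise. Of 18 listed, 13 were measured, and 8 were lower on the keratinocyte-labelled arrays, 5 did not pass the test and none was higher, against 41.7% of all genes called lower and 32.9% called higher. Their median log2 difference was -0.35, against 1.46 for the Hox genes and -0.12 for all genes. Skap2, an adaptor of the Src pathway and the nearest protein-coding neighbour of HoxA at its anterior end, read 6.80, 6.71 and 6.58 against 7.45, 7.70 and 7.63, 1.86-fold lower. Lnpk, an endoplasmic reticulum protein beside HoxD, was 1.55-fold lower, with 2 of the keratinocyte-labelled arrays above background. Atp5g3, a subunit of ATP synthase farther out on the same side of HoxD, was 1.77-fold lower. Smug1, a DNA repair glycosylase beside HoxC, differed by -0.87 ± 0.11 SE on the log2 scale, below background. The large positive differences of HoxC and HoxD were thus not shared by the neighbouring genes measured.

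**Figure D4:**
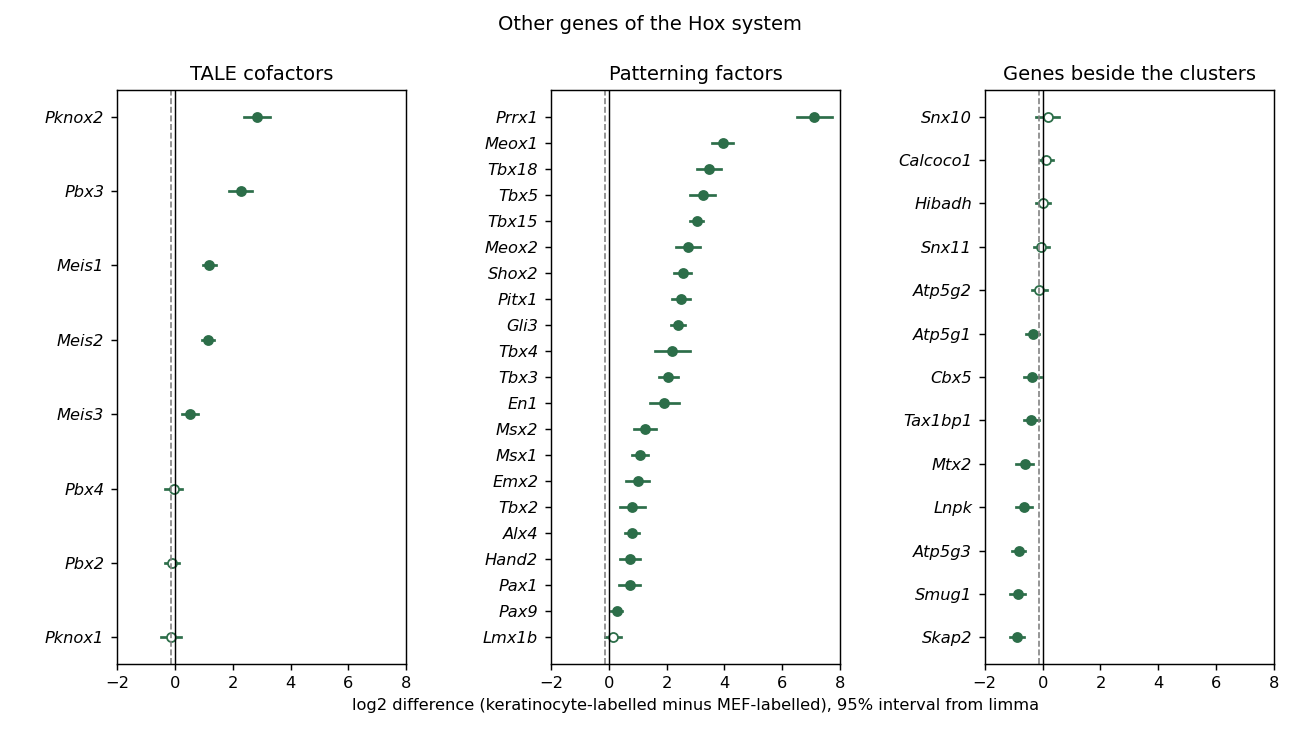
Log2 difference, keratinocyte-labelled arrays minus MEF-labelled arrays (horizontal axis), of the TALE cofactors, the patterning factors of trunk and limb and the genes beside the Hox clusters (rows), with 95% intervals from limma; filled points passed an adjusted p of 0.05 and the dashed line is the median of all genes. Of the 21 patterning factors 20 were called higher, and none of the 13 genes beside the clusters was.

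Other transcription factors of regional identity were mostly higher on the same arrays as the Hox genes. In a list of 22 patterning factors of trunk and limb, 21 were measured, 20 were higher against 32.9% of all genes, and only Lmx1b did not pass, with a median log2 difference of 2.07. None of the 21 was above background on any MEF-labelled array, and filters on dim probe sets left 2 to 6 of them called higher. Members that passed the background filter did so through the keratinocyte-labelled arrays alone, so these counts support no direction. Prrx1, a homeobox gene of limb mesenchyme, read 9.86, 9.64 and 9.72 against 3.35, 2.32 and 2.28 and was at least 10.2-fold higher. Meox1, of the somites, Tbx18, of the limb and heart mesenchyme, and Tbx5, of the forelimb, followed with log2 differences of 3.94, 3.47 and 3.25. The retinoic acid pathway, which sets anterior Hox expression in the embryo, had 12 of 18 genes measured, of which 7 were higher, 1 lower and 4 not past the test, against 32.9% of all genes higher and 41.7% lower. Its median log2 difference was 0.87. Crabp1, a retinoic acid binding protein, was at least 15.1-fold higher, Crabp2 at least 2.90-fold and the retinal reductase Dhrs3 at least 3.78-fold, while Aldh1a2, which makes retinoic acid, was below background throughout with a log2 difference of 2.67. The nuclear receptor Rxra ran against most of its list and was 2.48-fold lower. Fibroblast markers moved with these lists as with the Hox genes, as given above, and their part in the differences was not tested.

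Regulators that hold Hox clusters off or on were called in both directions, at shares close to or below those of all genes. Of 29 Polycomb and trithorax genes listed, 26 were measured, 9 were higher, 8 lower and 9 not past the test, against 32.9% of all genes higher and 41.7% lower, with a median log2 difference of 0.01. Ezh2 and Suz12, core subunits of the complex that methylates histone H3 at lysine 27, were 1.49-fold and 1.59-fold lower on the keratinocyte-labelled arrays, and their partner Jarid2 was 1.84-fold lower, with 2 of the keratinocyte-labelled arrays above background. Ezh1, the relative of Ezh2, was 1.65-fold lower, above background on 2 keratinocyte-labelled arrays and 1 MEF-labelled array. Ring1, of the other Polycomb complex, differed by -0.45 ± 0.11 SE on the log2 scale without being above background on all arrays of either group. Among activators, Kmt2a, the methyltransferase that maintains Hox expression, was 1.78-fold higher, with 1 MEF-labelled array above background. Wdr5, a subunit of its complex, was 2.16-fold lower, Ash2l, another subunit, 1.18-fold lower and the remodeller subunit Bptf 1.18-fold lower. The calls of Ash2l and Bptf were lost with median centring (limma adjusted p = 0.183 and 0.151), with quantile normalization (0.128 and 0.147) and on leaving out any of 5 arrays, that of Ash2l holding only without keratinocytes replicate 1 and that of Bptf only without keratinocytes replicate 3. Phf19, a Polycomb cofactor, differed by 0.76 ± 0.11 SE, below background. In a list of 8 other proteins that bind Hox proteins or turn them over, 7 were measured, of which 3 were higher and 3 lower, against 32.9% and 41.7% of all genes. The acetyltransferase Ep300 did not pass the test, with a log2 difference of 0.22 (limma adjusted p = 0.0552). The coactivator Crebbp was 1.46-fold higher and the transcription factor Maf 1.69-fold higher, the latter above background on 1 MEF-labelled array. Hmgb1, a chromatin protein, had a log2 difference of 0.96 ± 0.37 SE (limma adjusted p = 0.0448) with a wide spread among arrays, and its call was lost on leaving out keratinocytes replicate 1 (0.148) or 3 (0.133) or MEF replicate 2 (0.063) or 3 (0.145). The homeodomain repressor Tgif1 was 1.36-fold lower and the ubiquitin ligase scaffold Cul4a 1.23-fold lower, the latter call being lost with median centring (limma adjusted p = 0.0649). Gmnn, which binds Hox proteins and a replication factor, differed by -1.12 ± 0.16 SE below background.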

How the data were processed

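The authors deposited log2 signals of 15648 probe sets on 6 arrays, RMA-normalized per the methods of the study with the package oligo (version 1.46.0 in the submitters' processing notes); that the values are log2 was inferred from their range, and the arrays RMA was run over are not given in the sources used here. The platform's probe table paired 11288 probe sets with 1 symbol, 645 with several (left out) and left 3715 unnamed. Differences were computed on the 11288 probe sets with lmFit and eBayes in limma 3.58.1 (R 4.3.3), as keratinocyte-labelled arrays minus MEF-labelled arrays, with Benjamini-Hochberg adjustment over all of them and a threshold of 0.05. The 572 genes with several probe sets were represented by the brightest. Lower bounds set the mean of the brighter group against, per array, the higher of the background and the dim signal. All Hox genes were named; array values were given for the 12 largest differences above background, any gene against its cluster and further members, and up to 4 genes of each other list, with those against its direction. The other members named from those lists (Pbx2, Pbx4, Pknox1, Evx2, Cdx1, Lmx1b and Ep300) fall outside this rule. The members and lists were chosen with earlier results of these data known. The fit was tested on simulated data. The number of arrays limits precision. Alternatives covered scaling, filters, variance model, probe set choice, threshold, background, a replicate block and leaving out each array.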

Additional observations from a re-analysis of the deposited data

How the results depend on the processing

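Filters on dim probe sets changed the counts most, because most Hox genes were left out by them. With the dimmest 25% left out, 7 Hox genes were higher (HoxA 2, HoxC 2, HoxD 1, central 4, posterior 2) and 0 lower. This filter used the mean over the 6 arrays. Hoxc6 (group means 6.33 and 3.85), Hoxc8 (7.08 and 3.28) and Hoxd13 (7.40 and 2.78) passed it through their keratinocyte-labelled signal. Their part of the count therefore supports no direction. With probe sets under the median left out, 2 were higher (HoxA 1, HoxB 1, HoxC 0, HoxD 0; anterior 0, central 1, posterior 1) and 0 lower. With genes above background on at least 3 arrays, 6 were higher (HoxA 1, HoxB 1, HoxC 2, HoxD 2; anterior 0, central 3, posterior 3) and 0 lower; Hoxc6, Hoxc8, Hoxd11 and Hoxd13 pass this filter through the keratinocyte-labelled arrays alone, so the count supports no direction. With a minimum log2 difference of 1, HoxA had 4 higher genes, HoxB 0, anterior 0 and central 5, and 0 were lower. The lower count, Hoxa2 alone, was also 0 with median centring, with a trended and robust variance, and with the methods' t-test, adjusted or not. Leaving out each array gave 0 to 2 genes lower and 0 to 1 anterior genes higher. Hoxb2, which passed no test, ranged from -0.0169 to 0.1664 in these fits. Genes above background on all arrays of a group rose from 7 to 23 and from 2 to 10 with the olfactory median. A wider set of sensory receptors could not be used as background, since no further receptor probe set was found. Median centring moved the median difference over probe sets with 1 symbol from -0.12 to -0.03. Deviations from the group means correlated weakly between same-numbered arrays (r = -0.19, -0.15 and -0.06) and between arrays of unlike number (-0.04 to 0.17). Such weak values cannot show whether the numbers pair the samples, and the labels do not say. With a replicate block 21 Hox genes were higher and 1 lower, Hoxb9 being lost (limma adjusted p = 0.0544). The patterning factors called higher numbered 4, 2 and 6 under the 3 filters on dim probe sets in the order above, the TALE cofactors 3 with probe sets under the median left out, and the retinoic acid genes called lower 2 under each filter and with the methods' t-test. The counts of patterning factors support no direction, since none was above background on any MEF-labelled array. With a minimum difference of 1, 0 flanking genes were lower, 0 Polycomb and trithorax genes higher and 1 lower, and 0 partners higher and 1 lower. Pbx4, which passed no test, was at 0.0615 with median centring, 0.0235 with array weights and -0.1318 to 0.0485 with arrays left out. Ash2l, Bptf and Cul4a also lost their calls with the replicate block (0.0952, 0.0954 and 0.0519), and Ep300 gained one under 8 settings (p from 0.0113 to 0.0404, adjusted except in the unadjusted methods' t-test). The other Hox genes and the other list members with an alternative computed kept their direction. Depth is unknown for arrays, and signals near background limit what can be said of Hox levels on the MEF-labelled arrays.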

Other observations

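The microRNA gene Mir615 lies within HoxC, and its probe set read 5.49, 5.68 and 5.59 on the keratinocyte-labelled arrays and 5.77, 5.02 and 5.37 on the MEF-labelled arrays. Its log2 difference was 0.20 (limma adjusted p = 0.3226) and it was above background on 1 array. One probe set named both Hoxb8 and Hoxb7 and was left out of the comparisons. It read 4.39, 4.66 and 4.40 on the keratinocyte-labelled arrays and 3.69, 3.89 and 3.94 on the MEF-labelled arrays, below background on all arrays and without overlap, a log2 difference of 0.64. The probe set of Hoxb7 alone overlapped between the groups, so the shared probe set reads apart from it.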
